A study of Homo sapiens with 16 samples.

Results

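The genes described here are 10 targets of the transcription factor NRF2 or partners of those targets, chosen by name out of 60669 genes: HMOX1, NQO1, GCLC, GCLM, SLC7A11, TXN, TXNRD1, PRDX1 and the ferritin genes FTH1 and FTL. They were measured in HMC3, a human cell line labelled as microglial, either wild type (WT) or labelled as a knockout (KO) of METTL3, the gene of the catalytic subunit of the enzyme that writes N6-methyladenosine on RNA. Of the 16 libraries, 10 were poly(A) libraries made with Smart-seq2 (5 per genotype) and 6 were made after removal of ribosomal RNA with a directional kit (3 per genotype). All started from Trizol-extracted total RNA, and no treatment or time is labelled for any group. The labels do not say whether the knockout is 1 clone or whether the libraries come from separate cultures, so p-values measure the spread between these samples, which may be technical.

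NRF2 is held in the cytoplasm by KEAP1, which passes it to a ubiquitin ligase built on CUL3. Oxidants and electrophiles modify KEAP1, NRF2 is then spared, and with a small MAF protein it binds antioxidant response elements and raises genes for glutathione supply, thioredoxin recycling, quinone reduction, heme breakdown and iron storage. BACH1 occupies the same elements as a repressor and is released by heme. Ferritin, a shell of heavy (FTH1) and light (FTL) chains that stores iron, is also set at translation, through a stem-loop near the start of both messages that iron regulatory proteins bind.

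The RefSeq table of start sites (GRCh38.p14) held 7 windows for 6 of the 10 genes, namely GCLM, GCLC, TXN, TXNRD1 (2 starts), NQO1 and FTL. HMOX1, SLC7A11, PRDX1 and FTH1 are named only. Each window of 300 bases was searched on both strands for the core of the antioxidant response element, TGACNNNGC. It was in 3 of the 7 windows, from 2 genes, and in 13.3% of all 35116 windows. Both TXNRD1 starts and the GCLM start, which hold it, are given with the TXN start, which does not, since TXN and TXNRD1 are working partners. The sequences run 5′ to 3′ on the gene's strand and end 10 bases after the start. Capitals mark a match on either strand. A match is a description of the letters and not a shown binding site.
TXNRD1, first start, chr12:104215529-104215788, + strand: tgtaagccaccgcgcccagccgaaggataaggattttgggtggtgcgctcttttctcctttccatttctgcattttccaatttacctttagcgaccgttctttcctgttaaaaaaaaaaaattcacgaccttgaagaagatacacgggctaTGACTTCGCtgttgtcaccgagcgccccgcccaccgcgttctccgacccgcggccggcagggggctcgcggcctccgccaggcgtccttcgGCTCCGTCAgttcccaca
TXNRD1, second start, chr12:104286782-104287041, + strand: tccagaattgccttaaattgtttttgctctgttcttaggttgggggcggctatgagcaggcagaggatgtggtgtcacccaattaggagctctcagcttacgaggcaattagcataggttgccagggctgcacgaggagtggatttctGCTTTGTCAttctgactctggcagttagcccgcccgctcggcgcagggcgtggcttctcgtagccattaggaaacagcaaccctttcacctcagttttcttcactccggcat
GCLM, chr1:93909421-93909680, - strand: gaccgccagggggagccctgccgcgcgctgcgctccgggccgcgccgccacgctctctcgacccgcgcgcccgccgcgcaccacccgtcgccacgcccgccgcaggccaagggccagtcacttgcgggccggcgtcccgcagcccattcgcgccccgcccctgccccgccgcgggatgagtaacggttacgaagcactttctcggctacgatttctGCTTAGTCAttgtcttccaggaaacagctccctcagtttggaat
TXN, chr9:110256498-110256757, - strand: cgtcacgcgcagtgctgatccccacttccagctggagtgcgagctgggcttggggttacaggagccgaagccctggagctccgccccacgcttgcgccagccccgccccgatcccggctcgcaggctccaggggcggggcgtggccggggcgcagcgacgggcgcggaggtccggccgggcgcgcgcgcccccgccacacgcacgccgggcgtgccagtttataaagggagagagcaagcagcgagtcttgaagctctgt

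The GCLM match lies at positions -34 to -26 from the start and the match of the second TXNRD1 start at -102 to -94. The first TXNRD1 start has a match at -99 to -91 and another at -8 to 1. For FTL the table also shows the loop of the iron-responsive element, the letters CAGTGN, here in capitals within 26 bases at positions 25 to 50 after the start. The same letters were in the 50 bases after the start in 6.4% of windows.
FTL loop, chr19:48965333-48965358, + strand: gtctcttgcttcaaCAGTGTttggac

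The rRNA-depleted libraries were read through the authors' TPM (a gene's share of a library after division by its length, scaled to a fixed total). A TPM value is a share, so fewer copies per cell and a larger share for other RNA cannot be told apart, nor can fewer cells of a type and less RNA per cell. Reads recovered from the TPM came to 266157 to 487272 in the wild-type libraries and 512627 to 1267171 in the knockout-labelled libraries, which is shallow. Knockout-labelled libraries 1 and 2 did not differ detectably beyond the sampling noise (chi-square of 1.021 per degree of freedom over 10119 genes, p = 0.06461, against 1.166 to 1.537 for the other pairs of a label) and were counted as 1 sample, so means are over 3 wild-type and 2 knockout-labelled samples. The METTL3 message was not lower under the knockout label. It stood at 31.2, 31.6 and 25.4 TPM in wild type and 39.2, 40.0 and 42.7 TPM in the knockout-labelled libraries (limma adjusted p = 0.106), with a log2 fold change of 0.09 in the authors' deposited poly(A) table (adjusted p = 0.654), and where the gene was edited is not given in the sources used here. Of 14 microglial markers 11 were listed at 0 in all 6 libraries, AIF1, CX3CR1, P2RY12, TMEM119, PTPRC and TYROBP among them, and their sum was 0 to 6.47 TPM in wild type and 0.532 to 5.24 TPM in the knockout-labelled libraries. The 7 fibroblast and pericyte markers summed to 10359 to 12827 TPM in wild type and 1162 to 1308 TPM in the knockout-labelled libraries, mostly COL1A1 (9612 to 11995 and 749 to 865 TPM). COL1A2 and PDGFRB were lower in every knockout-labelled library, THY1 was higher (121 to 131 and 248 to 270.3 TPM), ACTA2 overlapped, and COL3A1 and DCN were listed at 0 in all but 1 library each. 7SK, a small nuclear RNA without a poly(A) tail, took 36871 to 40700 TPM and 143847 to 156688 TPM respectively. The part of these shifts in the results below was not tested.

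In the rRNA-depleted libraries 7 of the 10 genes were higher in the knockout-labelled samples, 0 were lower (also 0 with voom and 0 at an unadjusted p under 0.05), and GCLC, GCLM and SLC7A11 did not pass the test (limma on log2(TPM + 1), Benjamini-Hochberg adjusted p under 0.05 over 14789 genes). The background was 22.9% of all genes tested called higher and 12.4% called lower. TXN, the redox protein thioredoxin, was 11.1 times as high, and HMOX1, the inducible heme oxygenase, whose wild-type level is only bounded, at least 3.44 times. FTH1, FTL and TXNRD1 were 2.67 to 2.89 times as high. The median log2 change of the 10 was 1.53, beside 0.41 for all genes tested, and it is the same with HMOX1 at its lower bound. All 3 knockout-labelled libraries lay above all 3 wild-type libraries for 8 of the 10 genes, against 38.4% of all genes, and for GCLC and GCLM the libraries overlapped. Together the 10 genes took 2158, 2542 and 1906 TPM of the wild-type libraries and 6104, 6398 and 6378 TPM of the knockout-labelled libraries.

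Scaling by median ratios moved the median of all genes to 0.11, with 16.0% called higher and 16.9% lower. It left 5 of the 10 higher (without HMOX1 and PRDX1). Removing the trend with GC content gave 11.2% and 15.2% and also left 5 higher (without NQO1 and PRDX1), but called GCLM lower. Leaving out knockout-labelled library 3, so that this arm had 1 sample assumed to vary like the others, left TXN and TXNRD1 higher, with 6.79% of all genes called higher, 4.46% called lower and 1663 genes called in all, instead of 5220. At an adjusted p under 0.01, 4 of the 10 were higher (TXN, TXNRD1, FTH1 and FTL), against 9.47% of all genes.

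**Figure D1:**
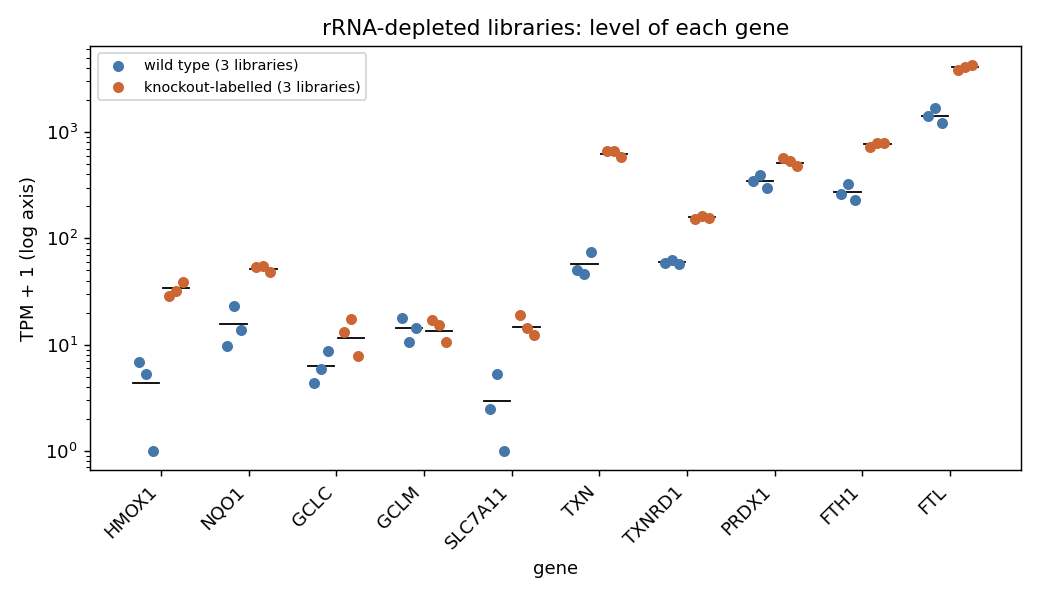
Level of the 10 genes in each rRNA-depleted library, as TPM + 1 on a log axis, with wild-type libraries in blue, knockout-labelled libraries in orange and black bars for the group means over 3 and 2 samples. The colours separate for every gene except GCLC and GCLM, and TXN moves from 45.3 to 73.4 TPM in wild type to 588 to 663 TPM.

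The thioredoxin system passes electrons from NADPH through thioredoxin reductase (TXNRD1) to thioredoxin (TXN), which renews peroxiredoxins such as PRDX1 after they have reduced peroxide. TXN (ENSG00000136810, chr9:110243811-110256640, GRCh38, GENCODE 29, as for the positions below) was at 49.6, 45.3 and 73.4 TPM in wild type, from 8, 5 and 14 reads, and at 663, 657 and 588 TPM in the knockout-labelled libraries, from 226, 274 and 104 reads. The lowest knockout-labelled library was far above the highest wild-type one. The wild-type mean was 56.1 ± 15.1 TPM (SD, n = 3), the knockout-labelled mean 624 ± 51.0 TPM (SD, n = 2), and limma put the rise at 3.48 ± 0.23 (SE) on the log2 scale with an adjusted p of 0.00125. Its rank by mean TPM among all genes moved from 2716 to 142. The 7 TXN retrocopies in the table added at most 3.54% of the parent's TPM, in 1 library.

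TXNRD1 (ENSG00000198431, chr12:104215779-104350305) varied least of the 10 between libraries of a group. It was at 58.1, 61.7 and 56.2 TPM in wild type and at 152, 163 and 156 TPM in the knockout-labelled libraries, on 40 to 398 reads. The difference was many times the spread within groups, 58.7 ± 2.79 TPM (SD, n = 3) against 157 ± 0.879 TPM (SD, n = 2). The second SD is small because knockout-labelled libraries 1 and 2 (152 and 163 TPM) were averaged first, so it understates the spread between libraries. For TXNRD1 limma put the rise at 1.40 ± 0.11 (SE) on the log2 scale with an adjusted p of 0.00188.

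PRDX1 (ENSG00000117450, chr1:45511036-45523047) had the smallest called change. Its values were 349, 394 and 299 TPM in wild type and 564, 538 and 479 TPM in the knockout-labelled libraries. The groups did not overlap, and the rise was 1.48-fold, with means of 347 ± 47.7 TPM (SD, n = 3) and 515 ± 50.5 TPM (SD, n = 2). On the log2 scale this was 0.57 ± 0.15 (SE), with an adjusted p of 0.036 by limma. Relative to the median gene the change was 0.16, and the call was lost under median ratio scaling (adjusted p = 0.342), with the GC trend removed (0.307) and without wild-type library 1 (0.0815) or 3 (0.0602) or knockout-labelled library 3 (0.141), as it was without the filter on low values (0.0563) or the trend in eBayes (0.122). MMACHC, on the opposite strand, shares 379 exon bases with PRDX1 and was at 77.6, 76.2 and 83.7 TPM in wild type and 17.1, 19.1 and 11.0 TPM in the knockout-labelled libraries. The strand setting of the authors' counting is not given in the sources used here.

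The ratios between these partners lay apart under the 2 labels. The ratio of TXN to TXNRD1 was 0.854, 0.734 and 1.31 in the wild-type libraries and 4.37, 4.04 and 3.77 in the knockout-labelled libraries. The ratio of PRDX1 to TXN was 7.03, 8.70 and 4.07 in wild type and 0.850, 0.819 and 0.815 in the knockout-labelled libraries. Thus PRDX1 stood above TXN in every wild-type library and below it in every knockout-labelled one. These ratios have no test.

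The ferritin chains were the most abundant pair. FTL (ENSG00000087086, chr19:48965301-48966878), the light chain whose iron-responsive loop is printed above, was at 1404, 1674 and 1214 TPM in wild type and at 3879, 4124 and 4259 TPM in the knockout-labelled libraries. FTH1 (ENSG00000167996, chr11:61959718-61967660), the heavy chain that oxidises iron as it enters the shell, was at 262, 321 and 230 TPM in wild type and at 720, 788 and 783 TPM in the knockout-labelled libraries. Neither gene's groups overlapped. FTL rose 2.89-fold, the wild-type mean being 1430 ± 231 TPM (SD, n = 3) and the knockout-labelled mean 4130 ± 182 TPM (SD, n = 2), which limma put at 1.54 ± 0.16 (SE) on the log2 scale with an adjusted p of 0.00314. FTH1 rose 2.84-fold, with means of 271 ± 46.3 TPM (SD, n = 3) and 768 ± 20.3 TPM (SD, n = 2), or 1.51 ± 0.16 (SE) on the log2 scale with an adjusted p of 0.0031 by limma. Without knockout-labelled library 3 the adjusted p was 0.0644 for FTL and 0.0595 for FTH1.

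Before retrocopies were added, the 2 ferritin chains stood in nearly the same ratio in every library. FTL to FTH1 was 5.36, 5.21 and 5.28 in wild type and 5.39, 5.23 and 5.44 in the knockout-labelled libraries, that is 5.28 ± 0.0766 (SD, n = 3) and 5.38 ± 0.0927 (SD, n = 2), with overlapping values. The wild-type ratios rested on 63 to 78 FTH1 reads and 142 to 178 FTL reads. At that depth the small SD is not a measure of how constant the ratio is. Both genes have many near-identical processed copies, which makes their exact levels uncertain. Of 25 FTH1 retrocopies listed, 11 were above 0 and held 2.91% to 11.7% of the parent's TPM, and of 16 FTL retrocopies 2 were above 0 and held at most 1.87%. Adding the copies to their parents gave ratios of 5.26, 4.67 and 5.13 in wild type and 5.04, 4.85 and 4.99 in the knockout-labelled libraries. The means were then 5.02 in wild type and 4.97 in the knockout-labelled samples. BEST1, which shares 1267 exon bases with FTH1 on the opposite strand, did not exceed 0.793 TPM in any library.

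**Figure D2:**
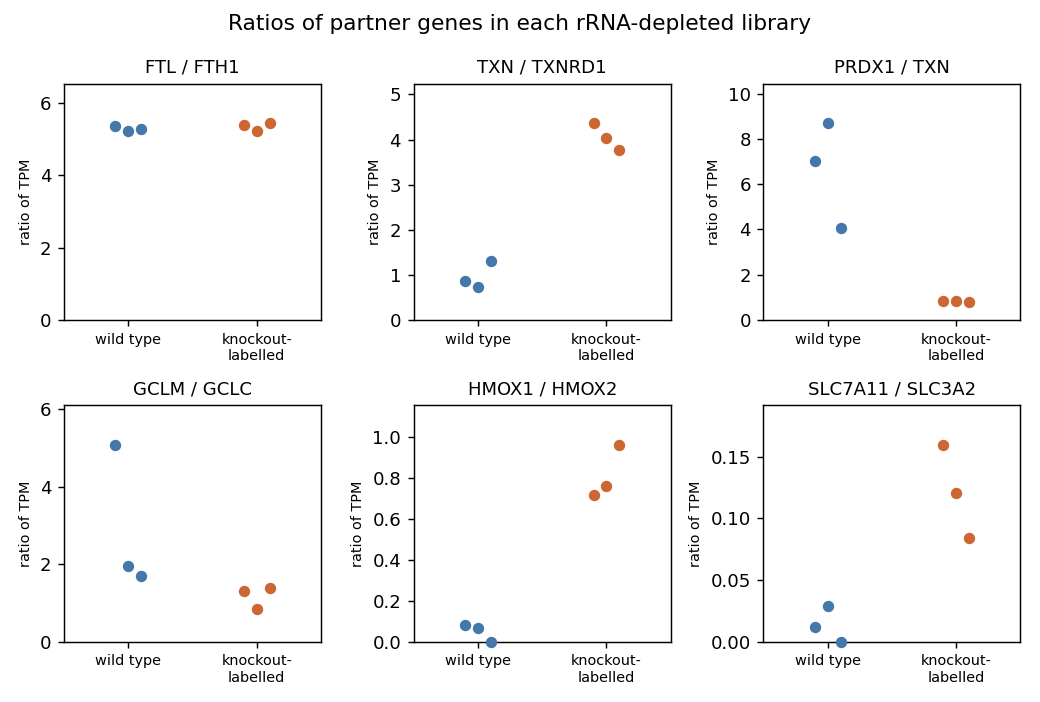
Ratios of TPM between partner genes in each rRNA-depleted library, with 1 point per library, wild type in blue and knockout-labelled in orange, each axis starting at 0. FTL to FTH1 stays between 5.21 and 5.44 in all 6 libraries, whereas TXN to TXNRD1 is at most 1.31 in wild type and at least 3.77 in the knockout-labelled libraries.

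HMOX1 (ENSG00000100292, chr22:35380361-35394214) encodes the inducible heme oxygenase, which opens heme to biliverdin, carbon monoxide and free iron. It was at 5.89, 4.30 and 0 TPM in wild type, from 2, 1 and 0 reads, and at 27.9, 30.7 and 37.6 TPM in the knockout-labelled libraries, from 20, 27 and 14 reads. Every knockout-labelled library was higher, but no wild-type library held more than 3 reads, so the wild-type level is only bounded. Set against 3 reads in each wild-type library (8.84, 12.9 and 7.47 TPM), the knockout-labelled mean of 33.5 ± 5.86 TPM (SD, n = 2) was at least 3.44-fold higher, for counting error only. HMOX1 passed the test (limma adjusted p = 0.0404), but not without wild-type library 2 (0.0551) or knockout-labelled library 3 (0.253), nor under median ratio scaling (0.0613), a pseudocount of 0.1 (0.146), no filter on low values (0.0616) or no trend in eBayes (0.0539).

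HMOX2, the constitutive heme oxygenase, moved the other way. It was at 72.8, 62.8 and 53.7 TPM in wild type and at 38.9, 40.4 and 39.2 TPM in the knockout-labelled libraries, which limma put at -0.65 ± 0.18 (SE) on the log2 scale with an adjusted p of 0.0396. That call was lost without wild-type library 1 (0.0876) or 2 (0.0762) or knockout-labelled library 3 (0.175), with the GC trend removed (0.0551), with no filter on low values (0.0557) and with no trend in eBayes (0.0889). The ratio of HMOX1 to HMOX2 was 0.0809, 0.0686 and 0 in wild type and 0.717, 0.760 and 0.960 in the knockout-labelled libraries. HMOX2 was thus above HMOX1 in each of the 6 libraries.

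NQO1 (ENSG00000181019, chr16:69706996-69726951), a quinone reductase often used as a readout of NRF2, was at 8.71, 22.3 and 12.9 TPM in wild type, from 4, 7 and 7 reads. In the knockout-labelled libraries it was at 52.5, 53.9 and 47.6 TPM, from 51, 64 and 24 reads. The groups lay apart, and the rise was 3.45-fold, with means of 14.6 ± 6.94 TPM (SD, n = 3) and 50.4 ± 3.94 TPM (SD, n = 2). On the log2 scale it was 1.81 ± 0.41 (SE), with an adjusted p of 0.023 by limma. The call did not hold with the GC trend removed (log2 change 1.12, adjusted p = 0.113), without wild-type library 3 (0.0584) or without knockout-labelled library 3 (0.166).

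None of the 3 genes of glutathione supply passed the test. SLC7A11 (ENSG00000151012, chr4:138164097-138242349), the light chain of the cystine/glutamate exchanger, was at 1.47, 4.29 and 0 TPM in wild type, from 2, 4 and 0 reads. In the knockout-labelled libraries it was at 18.1, 13.3 and 11.4 TPM, from 52, 47 and 17 reads. The libraries did not overlap, but the limma adjusted p was 0.0538 (log2 change 2.61, SE 0.79, 95% interval 0.61 to 4.61). It passed when genes under a mean of 5 reads were left out of the fit (adjusted p = 0.0183, with 8 of the 10 genes higher against 34.2% of those tested), without wild-type library 2 (0.0262) and with all 6 libraries as separate samples (0.0146). The ratio of SLC7A11 to SLC3A2, the heavy chain of the same exchanger, was 0.0122, 0.0290 and 0 in wild type and 0.160, 0.121 and 0.0837 in the knockout-labelled libraries.

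GCLC and GCLM encode the catalytic and modifier subunits of glutamate-cysteine ligase, which makes the rate-limiting step of glutathione synthesis. GCLC (ENSG00000001084, chr6:53497341-53616970) was at 3.35, 4.89 and 7.78 TPM in wild type, from 4, 4 and 11 reads, and 12.3, 16.5 and 6.87 TPM in the knockout-labelled libraries. Library 3 of the knockout label fell within the wild-type range (log2 change 0.86, SE 0.53, 95% interval -0.49 to 2.20, limma adjusted p = 0.266). GCLM (ENSG00000023909, chr1:93885205-93909456), whose start holds the element printed above, was at 17.0, 9.55 and 13.3 TPM in wild type and 16.1, 14.1 and 9.53 TPM in the knockout-labelled libraries. Those values cover the same range (log2 change -0.10, SE 0.39, 95% interval -1.08 to 0.89, limma adjusted p = 0.867), which leaves room for about a 2-fold change either way on 5 to 28 reads a library. With the GC trend removed GCLM was called lower (log2 change -1.24, adjusted p = 0.0447).

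By level, the wild-type order began with FTL, then PRDX1 and FTH1, then TXNRD1 and TXN, then NQO1 and GCLM, and ended with GCLC, HMOX1 and SLC7A11. Within each of those sets neighbouring genes had overlapping libraries, and between the sets they did not. In the knockout-labelled libraries the order was FTL, FTH1, TXN, PRDX1, TXNRD1, NQO1, HMOX1 and then SLC7A11, GCLM and GCLC, of which only the last 3 overlapped with a neighbour. By rank of mean TPM among all genes FTL went from 53 to 13, FTH1 from 432 to 112, PRDX1 from 312 to 179 and TXNRD1 from 2600 to 851.

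The poly(A) libraries were used through the authors' deposited table, which gives 1 comparison and no value for a single library. The table does not name its numerator, and a positive log2 fold change was read as higher in knockout, as the file is named for the knockout and 91.5% of the 177 genes called with a log2 change of at least 1 in size in both library types then share a sign. Under the opposite reading every poly(A) direction here reverses. The authors' deposited table called 2 of the 10 genes higher and 4 lower at its 0.05 threshold, against 9.55% and 10.3% of 14009 genes. The median log2 fold change of the 10 was -0.33 in that table, beside 0.02 for all genes.

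HMOX1 and TXN were higher in the authors' deposited table too, by a log2 fold change of 0.87 (SE 0.27, adjusted p = 0.0104) and 0.45 (SE 0.13, adjusted p = 0.00627). FTH1, at -0.53 (SE 0.14, adjusted p = 0.00243), and FTL, at -0.34 (SE 0.10, adjusted p = 0.00423), were lower in the authors' deposited table. So were TXNRD1, at -0.39 (SE 0.07, adjusted p = 4.69e-07), and PRDX1, at -0.44 (SE 0.11, adjusted p = 0.000526), per the authors' deposited table. Both ferritin chains, TXNRD1 and PRDX1 were therefore called higher in the rRNA-depleted libraries and lower in the poly(A) table, as were 3.03% of the 12498 genes present in both, while HMOX1 and TXN were higher in both, as were 5.18%.

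The remaining 4 genes did not pass in the authors' deposited table. NQO1 had a log2 fold change of 0.11 (SE 0.10, adjusted p = 0.498) on a mean of 180 normalized counts in the authors' deposited table. SLC7A11, at -0.84 (SE 0.48, adjusted p = 0.235), GCLM, at 0.69 (SE 0.54, adjusted p = 0.429), and GCLC, at -0.31 (SE 0.26, adjusted p = 0.454), rested on means of 10.4, 6.98 and 20.1 normalized counts in the authors' deposited table, the 3 lowest of the 10. At an adjusted p under 0.01 in the authors' deposited table TXN was higher and the same 4 genes were lower, against 6.1% and 6.83% of genes, and none of the 10 reached a log2 fold change of 1 in size, as 2.67% did as higher and 1.95% as lower. The difference between library types was not tested, since protocol, scale and fit differ.

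**Figure D3:**
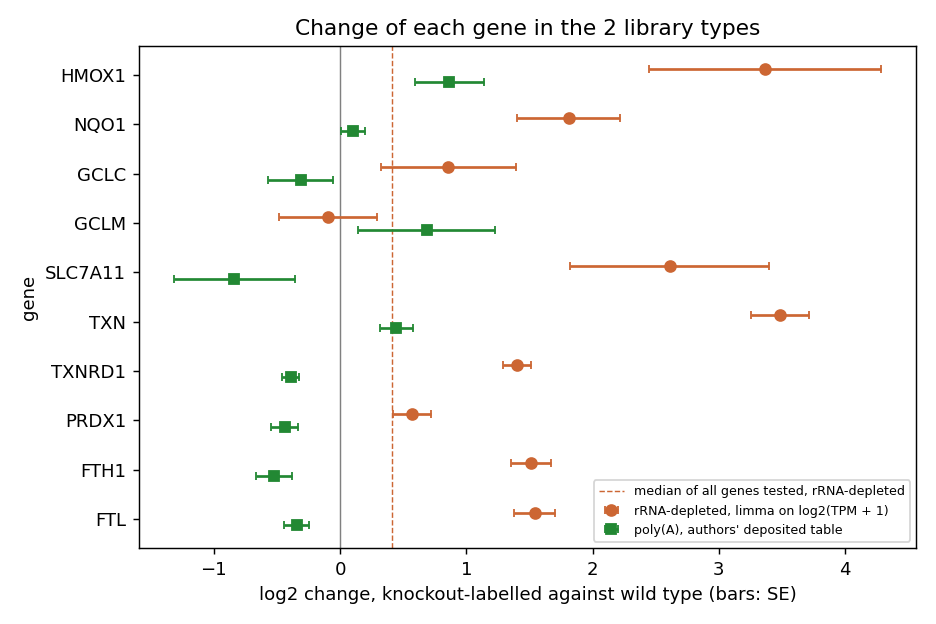
Log2 change of each gene, knockout-labelled against wild type, with SE bars: orange circles from limma on log2(TPM + 1) in the rRNA-depleted libraries, green squares from the authors' deposited poly(A) table, and a dashed line at 0.41, the median of all genes tested in the rRNA-depleted libraries. For TXNRD1, PRDX1, FTH1 and FTL the circle lies right of 0 and the square left of it, and the squares stay within 1 of 0.

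Other genes of the same biology were taken from 7 lists of 99 genes, of which 98 are in the table and 80 were tested in the rRNA-depleted libraries. There 26 were higher and 12 lower (32.5% and 15.0% of those tested, beside the 22.9% and 12.4% given above for all genes), and the median log2 change was 0.83. In the order used below, the lists had 33.3%, 22.2%, 46.2%, 66.7%, 28.6%, 9.1% and 43.8% of tested genes higher. They had 25%, 22.2%, 15.4%, 33.3%, 14.3%, 0% and 6.2% lower. Of 82 genes that the authors' deposited table tested, it called 8 higher and 25 lower (9.8% and 30.5%, beside 9.55% and 10.3% of all genes in that table). Without knockout-labelled library 3, 5 of the 80 were higher and 4 lower in the rRNA-depleted libraries, beside 6.79% and 4.46% of all genes.

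The regulators of NRF2 went in both directions, 4 of 12 higher and 3 lower. NFE2L2, the gene of NRF2 itself, was at 4.74, 3.46 and 8.01 TPM in wild type, from 4, 2 and 8 reads, and at 46.0, 37.6 and 33.5 TPM in the knockout-labelled libraries. That rise, with no overlap, was 2.65 ± 0.42 (SE) on the log2 scale with an adjusted p of 0.00835 by limma (0.0897 without knockout-labelled library 3), and in the authors' deposited table NFE2L2 was also higher, at 0.49. KEAP1, its inhibitor, was at 54.6, 74.3 and 58.9 TPM in wild type and 50.8, 52.4 and 53.2 TPM in the knockout-labelled libraries (limma adjusted p = 0.344). BACH1, the repressor at the same elements, was at 18.4, 29.5 and 23.3 TPM in wild type and 57.3, 63.5 and 46.0 TPM in the knockout-labelled libraries, which did not overlap. Its log2 change was 1.15 (limma adjusted p = 0.0257), against -0.60 in the authors' deposited table. With the GC trend removed the BACH1 change was 0.08 (adjusted p = 0.855), and the call was also lost under median ratio scaling (0.0752) and without wild-type library 1 (0.0511) or 3 (0.0604) or knockout-labelled library 3 (0.114). CUL3 and RBX1, parts of the ligase that KEAP1 serves, rose with log2 changes of 1.62 and 2.40, and MAFK, a small MAF partner, fell with -1.53, while RBX1 was lower in the authors' deposited table at -0.43. CUL3 went to 0.49 with the GC trend removed (adjusted p = 0.146), and RBX1 rested on 8, 2 and 7 wild-type reads.

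Among 18 tested genes of glutathione synthesis and use 4 were higher and 4 lower (22.2% each, beside 22.9% and 12.4% of all genes). GPX8, a glutathione peroxidase of the endoplasmic reticulum, was at 5.49, 8.03 and 4.64 TPM in wild type, from 3 reads in each library, and at 69.3, 78.6 and 60.1 TPM in the knockout-labelled libraries. The glutathione transferases GSTO1 and GSTK1 were higher (log2 changes of 2.03 and 1.62), as was GPX4, which reduces lipid peroxides (0.99). Glutathione synthetase (GSS, -0.68), glutathione reductase (GSR, -1.13) and GSTP1 (-0.82) were lower. The limma calls of GSTO1 (adjusted p = 0.0778) and GSTK1 (0.0627) were lost with the GC trend removed, and that of GSTO1 also without wild-type library 3 (0.0696). That of GPX4 was lost under median ratio scaling (0.0749), with no trend in eBayes (0.0631) and without wild-type library 3 (0.0505). That of GSS was lost with no trend in eBayes (0.0879) and without wild-type library 1 (0.0686) or 2 (0.0582). In the authors' deposited table GPX8 was higher at 0.68, and GSS at -0.67, GPX4 at -0.58 and GSTP1 at -0.65 were lower. Of 20 genes of this list with an adjusted p there, 3 were called higher and 10 lower. That is 15% and 50%, beside 9.55% and 10.3% of all genes in that table, and the list's median log2 fold change was -0.59.

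Around the thioredoxin members 6 of 13 genes were higher and 2 lower. TXNIP, which binds and inhibits thioredoxin, was at 9.77, 5.71 and 9.91 TPM in wild type, from 5, 2 and 6 reads, and at 44.4, 50.6 and 41.0 TPM in the knockout-labelled libraries, a log2 change of 2.29 (limma adjusted p = 0.00669). PRDX5 moved against PRDX1, from 1547, 1321 and 1683 TPM in wild type to 368, 405 and 485 TPM (log2 change -1.80, limma adjusted p = 0.00218), and PRDX4, the peroxiredoxin of the secretory pathway, fell too (-1.74). Both lay well apart between the labels. PRDX2, PRDX3 and PRDX6 were instead called higher, as PRDX1 was (limma adjusted p = 0.00774, 0.00995 and 0.0145). PRDX2, PRDX3 and PRDX6 did not pass in the authors' deposited table. The methionine sulfoxide reductase MSRB1 was called higher (1.54, limma adjusted p = 0.0431) on 6, 2 and 3 wild-type reads, but missed the threshold in 10 alternatives (the stricter 0.01 threshold counted), such as median ratio scaling (0.0882) and leaving out wild-type library 2 (0.0867) or 3 (0.0865) or knockout-labelled library 2 (0.0963) or 3 (0.272). The authors' deposited table had TXNIP at -0.39, PRDX5 at -0.43 and MSRB1 at -0.77, all lower.

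Of 3 tested superoxide dismutase and catalase genes, SOD1 (log2 change 1.42) and CAT (1.91) rose and CCS, the copper chaperone of SOD1, fell (-1.24). SOD1 was lower in the authors' deposited table at -0.50. Of 7 genes of NADPH supply 2 rose and 1 fell. PGD, a dehydrogenase of the pentose phosphate pathway, rose (0.78), and PGLS, a lactonase of the same pathway, fell (-1.47). Under median ratio scaling PGD was at 0.43 and not past the threshold (limma adjusted p = 0.128), nor was it once the GC trend was removed (0.0541). The PGD call was also lost with voom (0.0624), with no trend in eBayes (0.0645) and without wild-type library 2 (0.0513) or 3 (0.0561). CAT, on few wild-type reads, did not pass with the GC trend removed (1.17, adjusted p = 0.0606). Among 11 other NRF2 targets only TXNDC17, a thioredoxin-like protein, passed (2.42), on 4, 3 and 2 wild-type reads. That is 9.1% called higher, beside 22.9% of all genes. In the authors' deposited table TXNDC17 was lower at -0.40.

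Of 16 tested genes of iron handling 7 rose and 1, HMOX2, fell. TFRC, the transferrin receptor that brings iron into the cell, was at 54.8, 51.2 and 41.0 TPM in wild type and at 236, 233 and 169 TPM in the knockout-labelled libraries. It rose beside the ferritins, by 2.01 ± 0.21 (SE) on the log2 scale with an adjusted p of 0.00301 by limma, and was higher in the authors' deposited table at 0.19. PCBP1 and PCBP2, RNA-binding proteins that also carry iron to ferritin, rose (2.01 and 1.85), as did CYBRD1, a ferric reductase (1.69), and NCOA4, the receptor that takes ferritin to the lysosome (1.09). IREB2, an iron regulatory protein that binds the loop printed above, was also called higher (0.91), but turned to -0.17 with the GC trend removed, where NCOA4 went to 0.26 (adjusted p = 0.549) and CYBRD1 to 0.78 (0.0664). Under median ratio scaling NCOA4 (0.0915) and IREB2 (0.101) were not past the threshold either. NCOA4 and IREB2 were higher in the authors' deposited table, at 0.40 and 0.46. HMOX2 was lower in the authors' deposited table too, at -0.28 (SE 0.09, adjusted p = 0.0181). Of the 30 list genes that met the rule for naming and passed, 24 passed in the same direction under median ratio scaling and 20 with the GC trend removed. Without wild-type libraries 1, 2 or 3 these were 26, 26 and 24, and without knockout-labelled library 3 there were 7.

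**Figure D4:**
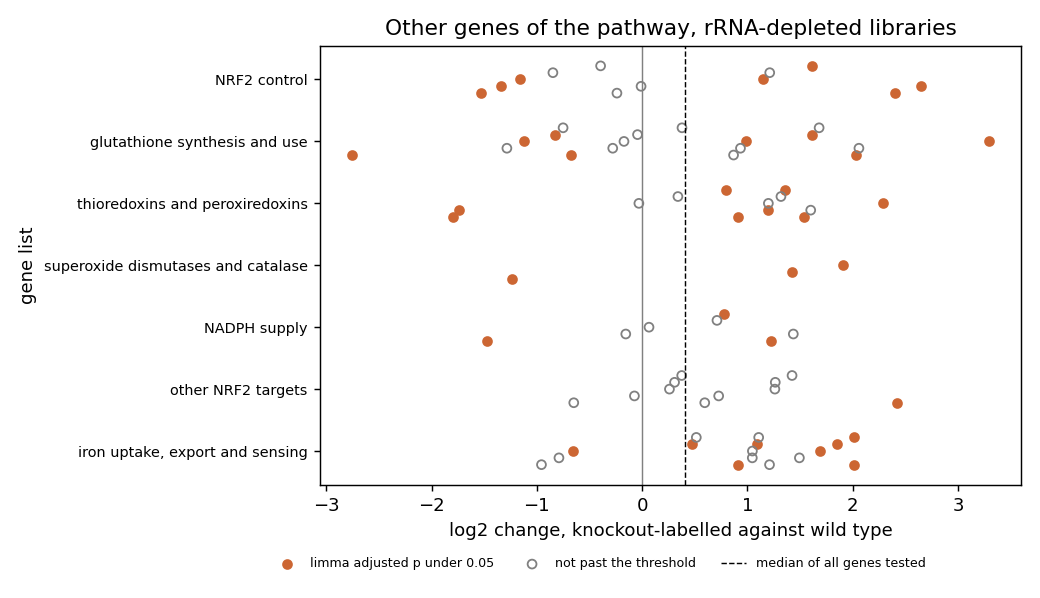
Log2 change in the rRNA-depleted libraries of the 80 tested genes from the 7 lists, 1 point per gene, filled where the limma adjusted p was under 0.05, with points spread vertically only to separate them and a dashed line at 0.41 for the median of all genes tested. In the list of thioredoxins and peroxiredoxins 6 filled points lie right of 0 and 2 left of it, and in the iron list 7 and 1.

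The change of a gene moved with its GC content in these libraries. Over 14669 genes the median log2 change was 1.24 in the 10% of genes with the lowest GC content and -0.41 in the 10% with the highest. The longest transcripts of the 10 genes had 35.4% to 58.1% GC, so each was set beside genes within 2 points of its own value. HMOX1 (58.1% GC) and FTL (56.3%) had a larger log2 change than 99.1% and 90.8% of such genes, whose medians were -0.01 and -0.005. TXN (42.8% GC) exceeded 97.2% of its like-GC genes (median 0.91), SLC7A11 89.6% (median 1.30), NQO1 81.7% (0.70), FTH1 81.6% (0.40), TXNRD1 70.2% (0.80) and PRDX1 60.5% (0.29). GCLC sat near the middle at 51.3% (median 0.81), and GCLM was below most at 17.3% (median 1.19). These are descriptions, and the part of GC content in each change was not tested.

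**Figure D5:**
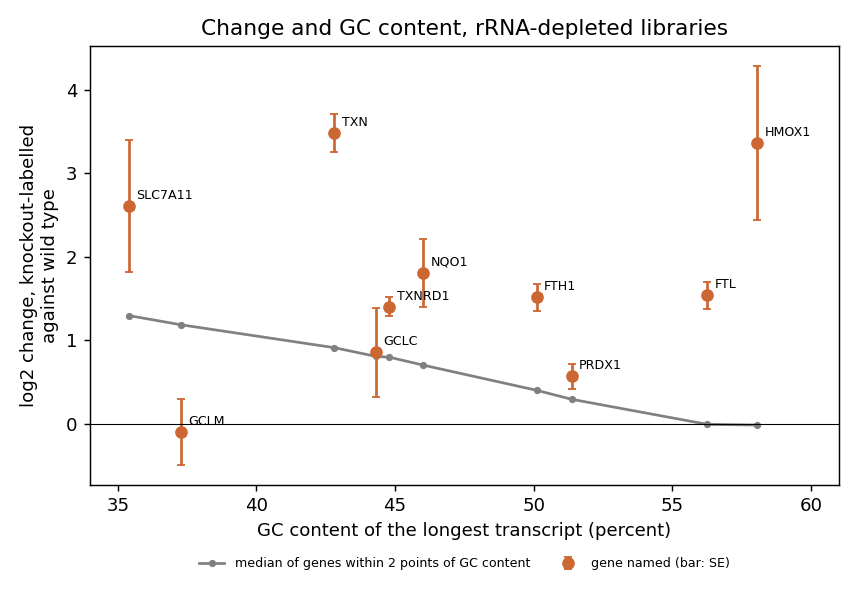
Log2 change of the 10 genes in the rRNA-depleted libraries (orange points, bars for SE) against the GC content of the longest transcript in percent, with the grey line joining the medians of all genes within 2 points of each gene's GC content. GCLC lies on the grey line, GCLM lies below it, and the other 8 genes lie above it by more than their SE.

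Across the 6 rRNA-depleted libraries the gene most like FTH1 in log2(TPM + 1), among 6833 genes with a mean of at least 20 TPM, was FTL, and the gene most like FTL was FTH1 (Pearson r = 0.9996). HMOX1, GCLC, GCLM and SLC7A11 averaged under 20 TPM, so they could not be picked as a closest gene. Among the other members no other pair were each other's closest. The closest gene was PTBP1 for TXNRD1 (0.9999), RPL23 for TXN (0.999), SNRPE for PRDX1 (0.999), STAG1 for SLC7A11 (0.999), PNMA2 for HMOX1 (0.998), S100A10 for NQO1 (0.998), CLK1 for GCLC (0.994) and HPS5 for GCLM (0.974). The 6 points fall into the 2 labels, so high values are common: 1180 genes exceeded 0.95 with FTH1, and 5 did with GCLM. The values are a description over 6 libraries that share their labels and depth.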

How the data were processed

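The authors deposited TPM for 6 rRNA-depleted libraries, and for the 10 poly(A) libraries a table of 1 comparison. Per the file headers that table holds a mean normalized count (a signal over all libraries), a log2 fold change with its SE on the log2 scale, a p-value before and after adjustment, and the Wald statistic, a score. It was described and not retested, although a count test had been planned in case it held counts. The submitters' processing notes name Trimmomatic, STAR, DESeq2 and hg38, with no role. Annotation, counting tool and strand setting are not given in the sources used here.

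Lengths, GC content and positions came from GENCODE 29 on GRCh38 (93.8% of 60669 identifiers matched). They gave the worth of 1 read, with 90.9% of values above 0 whole to within 0.02 reads. Depth is 266157 to 1267171 reads, and floors of 3 reads cover counting error only.

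Groups came from sample titles. Genes reaching 1 TPM in 3 or more libraries were tested with limma 3.58.1 (R 4.3.3; lmFit, eBayes with trend) on log2(TPM + 1), which understates the change of low genes, with genotype as the only term, knockout-labelled libraries 1 and 2 averaged, and Benjamini-Hochberg adjustment at 0.05 over all genes. The script was tested on simulated data of the observed depth. Most changed genes were missed there, so a gene that did not pass may still differ. Those recovered had the right direction. Some unchanged genes were also called, all with a mean under 5 reads, so calls on few reads are less secure. Tables and figures used Python 3.11.15, pandas 2.3.3 and matplotlib 3.10.9.

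Named were all 10 genes, NFE2L2, KEAP1, BACH1 and METTL3, from each list up to 4 genes of largest change (adjusted p under 0.05, mean of at least 5 TPM, groups apart), list genes called in both library types, and each member's closest gene. A gene that met this rule is not reported here. SLC3A2, MMACHC, BEST1, 7SK and the retrocopies were added as partners, overlaps or copies. PRDX2, PRDX3 and PRDX6 were added as relatives of PRDX1. Members and lists were chosen with earlier results of these data known. Alternatives covered scaling, pseudocount, filter, replicates counted, GC trend, voom, thresholds and each library left out.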

Additional observations from a re-analysis of the deposited data

How the results depend on the processing

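TXN and TXNRD1 passed the threshold in all 15 alternatives at 0.05, FTH1 and FTL in 14, NQO1 in 12, HMOX1 in 9, PRDX1 in 8 and SLC7A11, not called as reported, in 5. GCLM passed in 1, as lower, and GCLC in 0 of 14. At an adjusted p under 0.01, 2242 genes, 4 members as higher and 17 list genes were called, and 1811 genes and 1 member as higher in the authors' deposited poly(A) table. A log2 fold change of 1 or more in size left 647 genes, 0 members in either direction and 8 list genes in that table. The median log2 change of the members was 1.17 under median ratio scaling, 1.11 with the GC trend removed (1 member then lower) and 1.32 with voom on recovered reads. Adding retrocopies moved the FTL to FTH1 ratio to 5.02 and 4.97. Leaving out 1 library at a time gave 1663 to 5185 genes called, 2 to 7 members higher, 9 to 38 list genes and a member median of 1.42 to 1.65. The lowest counts came without knockout-labelled library 3, which left 1 sample in that arm. GCLM, not called, changed sign to 0.0036 with 6 libraries as separate samples, and ranged from -0.30 to 0.21 when 1 library was left out (0.09 without wild-type library 1), and IREB2 to -0.17 with the GC trend removed. The cause was not tested. Same-numbered libraries did not deviate together (r = 0.038, 0.017 and -0.031 over 6881 genes). That cannot exclude pairing, since at this depth the deviations are largely counting noise. With the replicate number as a block 6037 genes and 8 members as higher were called, with GCLM at 0.0036. The alternative that kept genes averaging 5 reads or more was chosen after seeing the data and called 8 members as higher. Depth limits most the genes whose wild-type libraries held 14 reads or fewer. Among the members these are HMOX1, NQO1, SLC7A11, GCLC, GCLM and TXN. Among the list genes that met the rule for naming they are NFE2L2, RBX1, GPX8, GSTK1, TXNIP, MSRB1, CAT and TXNDC17.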
